A study of Mus musculus with 4 samples.

Results

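The collagen gene family comprised 43 of the 32285 genes counted in each section, chosen by symbol (Col, a number, a, a number), and 39 of the 43 reached 20 UMIs over the 4 sections. The 4 genes under that minimum were Col19a1, Col22a1, Col6a4 and Col26a1, with 1 to 7 UMIs each. The levels come from frozen lung sections of C57BL/6J mice on Visium slides, whose barcoded spots capture polyadenylated RNA and tag every captured molecule (UMI, unique molecular identifier). Both groups, Vaped (V) and Non-Vaped (NV), consisted of 1 male and 1 female. The V mice, 6 to 8 wk old at the start, inhaled aerosol of Peach Ice vape juice (70VG/30PG) from JUUL pens in whole body chambers for 4 h per day on 5 d per week over 9 wk, and the NV mice did not. The tissue was labelled as upper pulmonary branches. With a single section per mouse, the tissue that happened to be cut is part of the spread between mice. Values of all 4 mice are listed in a fixed order, NV male, NV female, V male, V female, and sets of 3 values, from hilar and parenchyma spots, leave out the V male.

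Collagens are triple helical proteins built from 3 chains, and each chain has its own gene. Fibrillar collagens (types I, III, V, XI, XXIV and XXVII) assemble into the fibrils that give bronchial walls, vessel adventitia and the alveolar interstitium their tensile strength, and are made mainly by fibroblasts. Type IV collagens form the sheet-like network of basement membranes, including the thin membrane that alveolar type 1 cells and capillary endothelium share, and type VI collagens form beaded filaments between fibrils and basement membranes. The fibril-associated collagens (FACIT) decorate fibril surfaces, the multiplexins Col15a1 and Col18a1 lie at basement membranes, and Col13a1, Col17a1, Col23a1 and Col25a1 span the cell membrane.

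The type IV genes lie in head-to-head pairs in the mouse genome (GRCm38, GENCODE vM21). Col4a1 (chr8:11198423-11312826, minus strand) and Col4a2 (chr8:11312805-11449287, plus strand) overlap by 22 bases at their starts. Col4a4 (chr1:82448423-82586849, minus strand) and Col4a3 (chr1:82586921-82722059, plus strand) are separated by 71 bases, and Col4a6 and Col4a5 on chromosome X by 1308 bases. Among the fibrillar genes, Col3a1 (chr1:45311538-45349706, plus strand) and Col5a2 (minus strand) are neighbours 24614 bases apart, whereas Col1a1 (chr11:94936224-94953042, plus strand) and Col1a2 (chr6:4504814-4541544, plus strand) are on separate chromosomes. The sequences below are shown because Col3a1 and Col15a1 were among the collagens higher in hilar spots, Col13a1 had the largest fall there, and the gap between Col4a4 and Col4a3 precedes both starts of a pair whose ratio differed between mice. They come from RefSeq (GRCm38.p6) and run 5′ to 3′ on the strand named. Those of Col3a1 (chr1:45311288-45311537, plus), Col15a1 (chr4:47207762-47208011, plus) and Col13a1 (chr10:61979109-61979358, minus) are the 250 bases before the RefSeq start, and the gap is chr1:82586850-82586920 on the plus strand. For Col15a1 the GENCODE vM21 start lies further on, at 47208161, so its window ends short of that start. Capitals mark a TATA box, a CCAAT box or a GC box, on either strand.
Col3a1: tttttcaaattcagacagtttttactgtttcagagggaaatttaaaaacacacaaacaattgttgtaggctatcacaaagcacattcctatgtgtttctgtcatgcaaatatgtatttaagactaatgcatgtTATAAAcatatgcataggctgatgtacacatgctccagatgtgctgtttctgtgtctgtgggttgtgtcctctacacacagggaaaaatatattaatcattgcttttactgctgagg
Col15a1: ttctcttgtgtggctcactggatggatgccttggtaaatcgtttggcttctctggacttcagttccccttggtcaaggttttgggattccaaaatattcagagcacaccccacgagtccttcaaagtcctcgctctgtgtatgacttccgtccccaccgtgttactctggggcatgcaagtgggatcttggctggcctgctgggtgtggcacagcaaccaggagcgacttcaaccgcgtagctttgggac
Col13a1: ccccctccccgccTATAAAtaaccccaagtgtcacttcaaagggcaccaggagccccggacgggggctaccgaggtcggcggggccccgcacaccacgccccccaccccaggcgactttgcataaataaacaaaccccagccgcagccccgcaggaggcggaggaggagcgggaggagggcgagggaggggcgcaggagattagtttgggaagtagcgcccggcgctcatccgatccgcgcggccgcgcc
Col4a4-Col4a3 gap: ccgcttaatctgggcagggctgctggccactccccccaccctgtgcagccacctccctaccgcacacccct

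Windows upstream of a RefSeq start were found for 33 of the 39 reported collagens, and no motif searched contained another. Some windows, such as those of Col1a2 and Col27a1, lie past the GENCODE vM21 start, inside the gene. Upstream therefore refers to the RefSeq start here. The TATA box, searched as TATAAA on both strands, was present upstream of 5 of the 33 genes and in 12.4% of 32851 windows of all genes, the CCAAT box, searched by those letters on both strands, upstream of 12 and in 33.8%, and the GC box, searched as GGGCGG on both strands, upstream of 20 and in 32.7%. The collagens with 2 windows counted once if either held the motif. A stretch of letters is a description and says nothing about a factor bound there.

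The sections held 473 to 2053 spots and 6957392 to 34308556 UMIs, with medians of 6259 to 11355 UMIs per spot. Pairs of sections shared 277 to 1167 spot barcodes, and 0 of these barcodes had identical counts. The V male stood apart before any collagen was considered. It had the fewest UMIs per spot, 5.10% mitochondrial UMIs against 9.72 to 10.9% in the other mice, and 18.2 CPM of 6 cardiac muscle markers against 3673 to 7015 CPM, where CPM are UMI counts scaled to the total UMIs of the spots summed. Markers of club cells, the secretory cells of the airways that the tissue label names, were at 12683, 2244, 287 and 12764 CPM. Spots in which the alveolar markers Calcrl, Cldn18, Hopx, Sftpb, Sftpc and Tmem100 together made up at least 50% of their level over all spots (27648 CPM) were taken as parenchyma and the others as hilar spots. Hilar spots numbered 158, 125, 1 and 433, and the V male was left out of comparisons with them. Results that rest on the V male are therefore given with and without it.

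Collagens accounted for 2580, 2544, 1968 and 2599 CPM, most of it from the fibrillar and type IV classes. Fibrillar collagens were at 1003, 1083, 284 and 1183 CPM, so that only the V male was low. Type IV collagens were at 843, 773, 1103 and 746 CPM, and the V male was the highest. Fibrillar genes thus contributed 38.9, 42.6, 14.4 and 45.5% of collagen UMIs and type IV genes 32.7, 30.4, 56.0 and 28.7%. Type VI collagens ranged from 319 to 441 CPM, FACIT collagens from 63 to 146 CPM and transmembrane collagens from 78.3 to 144 CPM. Multiplexins ranged from 38.0 to 81.8 CPM, and short chain and anchoring collagens from 13.8 to 25.1 CPM. The type VI and multiplexin sums were lower in both V mice than in both NV mice. The short chain and anchoring sum was higher. Taken singly, Col6a1, Col6a2, Col6a3, Col6a5 and Col6a6 overlapped between the groups. How often sums of other genes separate the groups was not tested. Of all genes tested singly over whole sections, 12.6% were higher and 14.4% lower in both V mice. In parenchyma spots the type VI sum was again lower in both V mice. The multiplexin sum (67.6, 60.0, 38.0 and 65.8 CPM) and the short chain and anchoring sum (18.4, 17.5, 16.9 and 22.9 CPM) overlapped there. UMIs count 3′ ends of molecules and were not divided by transcript length.

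Among the 12 collagens with the most UMIs, the type I and type III chains separated the V male from the other mice most widely. Col3a1, the single chain of type III collagen in distensible tissue, was at 331, 393, 40.8 and 420 CPM. Col1a1 was at 211, 232, 56.6 and 249 CPM, and Col1a2 at 337, 324, 106 and 362 CPM. The V female lay above both NV mice for all 3 genes, and the V male below 50% of each. Col5a2, which joins type I fibrils and limits their diameter, was at 54.6, 60.1, 34.2 and 61.6 CPM.

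**Figure D1:**
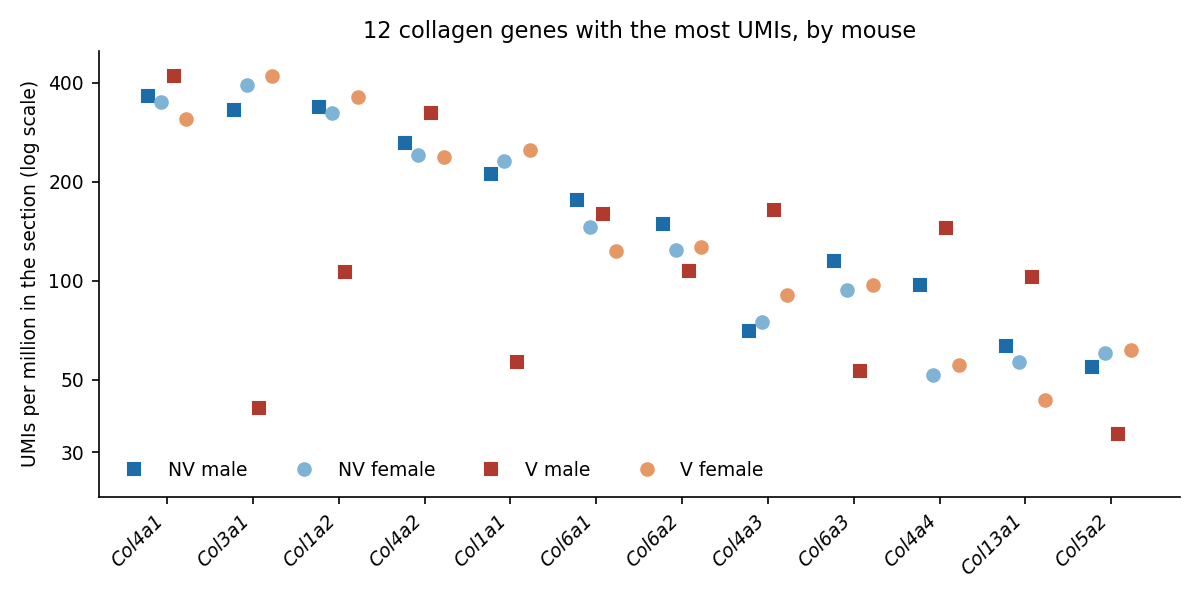
Level of the 12 collagen genes with the most UMIs in each mouse, in CPM of the whole section on a log axis (1 point per mouse; squares, males; circles, females; blue, NV; red and orange, V). The V male is lowest for Col3a1 (40.8), Col1a2 (106) and Col1a1 (56.6) and highest for all 4 type IV genes shown.

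The basement membrane chains had another order. Col4a1 was at 365, 349, 418 and 310 CPM and Col4a2 at 262, 241, 323 and 238 CPM, the ubiquitous chains of the type IV network. Col4a3, Col4a4 and Col4a5 encode the chains of the network found in alveolar and glomerular basement membranes, the one affected in Alport syndrome. Col4a3 was at 70.3, 75.0, 164 and 90.3 CPM, so that both V mice exceeded both NV mice. Col4a4 was at 96.7, 51.6, 145 and 55.5 CPM, so that it was higher in both males than in both females. Col4a5 (38.1 to 46.1 CPM) and Col4a6 (8.42 to 13.7 CPM) varied less.

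Col6a1, Col6a2 and Col6a3, the 3 chains of the common type VI heterotrimer, ranged over 123 to 175, 107 to 148 and 53.0 to 115 CPM. Col6a3 was lowest in the V male (53.0 CPM against 93.3 to 115 in the others), whereas Col6a1 there (159 CPM) lay between the NV mice. Col13a1, a transmembrane collagen of cell-matrix adhesions, was at 63.4, 56.5, 102 and 43.4 CPM, and was thus highest in the V male and lowest in the V female. Col14a1, a FACIT collagen that regulates fibril assembly, was at 41.3, 77.5, 8.5 and 66.8 CPM, and Col15a1, which links basement membranes to the fibrils beneath them, at 26.2, 44.3, 1.09 and 31.4 CPM. The latter 2 genes followed the type I and III chains in being lowest in the V male.

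Ratios between chains compare genes within a section and do not depend on its depth. Col4a1 over Col4a2 was 1.40, 1.45, 1.29 and 1.3, a spread of 1.12 times between the highest and the lowest. In the pair of Col4a3 and Col4a4 the spread was 2.24 times, and the ratio of the first to the second was 0.727 (95% counting interval on the log scale 0.658 to 0.804) in the NV male and 1.14 (1.06 to 1.21) in the V male, against 1.45 (1.27 to 1.66) and 1.63 (1.54 to 1.72) in the females. Col1a1 over Col1a2 was 0.532 to 0.715. Col3a1 over Col1a1 was 1.57, 1.70, 0.721 and 1.69, so that Col3a1 was below Col1a1 in the V male alone, and Col6a3 over Col6a1 was 0.655, 0.641, 0.334 and 0.787. These intervals cover counting error only, and no test was made of the ratios.

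Cartilage-type collagens were highest in the V female. Col11a1 had 269 UMIs in the V female and 0 to 1 in each other section, and Col9a2 had 150, Col10a1 80 and Col9a1 74 UMIs there against 0 to 1 elsewhere. Col11a2 (10, 19, 19 and 212 UMIs) and Col9a3 (8, 6, 15 and 140 UMIs) were found in every section. Types IX, X and XI are the minor collagens of cartilage. The 7 cartilage markers Acan, Comp, Matn1, Matn3, Hapln1, Cnmd and Snorc were at 30.1 CPM in the V female and at 0.337 to 3.88 CPM in the other mice. Their part in the levels of these collagens was not tested.

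V and NV mice were compared to ask whether exposure went with a change in collagen transcripts. UMIs were summed per mouse over parenchyma spots and compared by edgeR's quasi-likelihood test over 14348 genes, 33 of them collagens. No collagen was called (a Benjamini-Hochberg adjusted p below 0.05 with a log2 difference beyond 0.25 either way), and the background was 0 of 14348 genes called, that is 0%. Before adjustment, 1 of 33 collagens (3.03%) and 380 genes (2.65%) had p under 0.05. The single collagen was Col28a1, a beaded type VI relative with 37 UMIs in all. Its levels were 1.25, 1.59, 0.0842 and 0.268 CPM in parenchyma spots, and its log2 fold change was -2.81 (SE 0.90, adjusted p = 0.999). DESeq2's Wald test called 10 genes and none of the collagens.

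The fibrillar genes had wide errors in this comparison, and the V mice lay far apart. In parenchyma spots Col3a1 was at 318 and 344 CPM in the NV mice and at 40.8 and 385 CPM in the V mice, and the groups overlapped. Its log2 fold change was -0.60 (SE 0.95, adjusted p = 0.999), with an interval of 2 SE on either side from -2.51 to 1.3. Col1a1 (-0.58, SE 0.65) and Col1a2 (-0.58, SE 0.57) had similar values. Without the V male the values of Col3a1, Col1a1 and Col1a2 became 0.25, 0.12 and 0.055, and without the V female -3.02, -1.97 and -1.74, so the direction was set by 1 mouse.

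Type IV genes had narrower errors. Col4a1 was at 423 and 444 CPM in NV and 418 and 404 CPM in V parenchyma spots, with a log2 fold change of -0.067 (SE 0.17, interval -0.40 to 0.27). Col4a2 differed by 0.073 (SE 0.17, interval -0.26 to 0.40). Col4a3 was at 82.2 and 120 CPM in NV and 164 and 134 CPM in V mice, and its log2 fold change of 0.57 (SE 0.23) had an unadjusted p = 0.051 and an adjusted p = 0.999 in edgeR. Both V mice lay above both NV mice for Col4a3, as they did for Col4a2, Col20a1, Col7a1 and Col8a1, 5 of 33 collagens (15.2%), where 14.4% of all genes did so. Both lay below for Col5a1, Col4a1, Col16a1, Col6a1, Col6a3 and Col28a1, 6 of 33 (18.2%) against 17.1% of all genes. Both shares were near the background. Summed alveolar type 1 cell markers in these spots were also higher in both V mice (1456, 1443, 2238 and 1658 CPM), with 0 of 5 called. Their part in the Col4a3 level was not tested. The median log2 fold change was -0.49 over 8 fibrillar, 0.0029 over 6 type IV and -0.55 over 5 type VI genes tested, and 0.0084 over all genes.

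Over whole sections the test covered 14570 genes and again called 0% of them and 0 of 33 collagens. Col4a3 had the lowest unadjusted p among collagens (0.0487, log2 fold change 0.75, SE 0.27, adjusted p = 0.9997), in the background of 1.70% of genes with p under 0.05. Col3a1 differed by -0.58 (SE 1.14), Col1a1 by -0.49 (SE 0.80) and Col4a1 by -0.0099 (SE 0.22). Both V mice lay above both NV mice for 7 of the 33 collagens (21.2%, against 12.6% of all genes) and below for 2 (6.06% against 14.4%). By a rule chosen after the values were seen, 9 (27.3% against 8.46%) were in the V male under 50% of the lowest other mouse. The summed fibrillar to type IV ratio was 1.19 and 1.40 in the NV mice and 0.257 and 1.59 in the V mice. On the log2 scale this was 0.37 ± 0.17 for NV and -0.65 ± 1.86 for V mice (SD, n = 2 each), a difference of -1.01 with an exact two-sided permutation p of 1, where 0.333 is the smallest the design allows. Without the V male the difference was 0.30.

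When each V mouse was compared alone with the NV mice, the counts of called collagens were those of 1 mouse. Without the V female, 13 of 32 collagens were called in parenchyma spots, among 10.5% of all genes called. Lower in the V male were Col3a1, Col1a1, Col1a2, Col5a1, Col5a2, Col5a3, Col14a1, Col15a1, Col6a3, Col6a6 and Col8a2, and higher were Col4a3 (0.70) and Col4a4 (0.61). Without the V male, Col11a1, Col9a2 and Col9a1, the cartilage-type genes, were called as higher in the V female, 3 of 37 collagens among 2.02% of all genes. These fits had 1 V mouse, whose spread was taken to be that of the NV mice.

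By the same rule, chosen after the values were seen, 11 of the 33 collagens (33.3%) were in the V male under 50% of the lowest of the other mice in parenchyma spots. So were 6.27% of all genes tested. The 11 were Col1a1, Col1a2, Col3a1, Col5a3, Col14a1, Col6a3, Col6a5, Col6a6, Col15a1, Col8a2 and Col28a1. Markers of the matrix-rich fibroblasts moved with them in the V male. Dcn, the small proteoglycan decorin that binds type I fibrils, was at 324 and 396 CPM in NV, 39.5 in V male and 328 CPM in V female spots of the parenchyma, and Lum at 38.8, 38.5, 4.97 and 59.8 CPM. The 5 adventitial fibroblast markers summed to 379, 386, 101 and 347 CPM. Other fibroblast markers did not follow: Pdgfra was at 169, 230, 217 and 152 CPM, Tcf21 at 135, 154, 185 and 147 CPM, and Inmt at 3483, 3487, 4620 and 3106 CPM. Brown fat markers were also lowest in the V male (65.4 CPM against 287 to 854). The part of these cells in the collagen levels was not tested, and in such sums fewer cells of a type and less RNA per cell cannot be told apart.

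Spots with different counts of markers of vessel, airway or pleural wall were then compared within each section. Parenchyma spots were thinned to 3000 UMIs and sorted by their UMIs of 14 wall markers (adventitial fibroblast, smooth muscle and mesothelium). In spots without any such UMI (79, 28, 562 and 164 spots), fibrillar collagens were at 954, 762, 282 and 978 CPM, and the V male was as low there as over its whole section. In spots with 4 or more, they were at 1368, 1356, 306 and 1145 CPM. Type IV collagens stayed between 920 and 1172 CPM in every bin of every mouse. Spots without a wall marker UMI made up 41.2% of thinned parenchyma spots in the V male and 9.06 to 13.0% in the others. Few wall marker UMIs are drawn at this depth, so a spot with wall tissue can hold none of them. The bins therefore sort spots partly by counting error, and levels in spots without such UMIs need not be those of wall-free tissue.

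**Figure D2:**
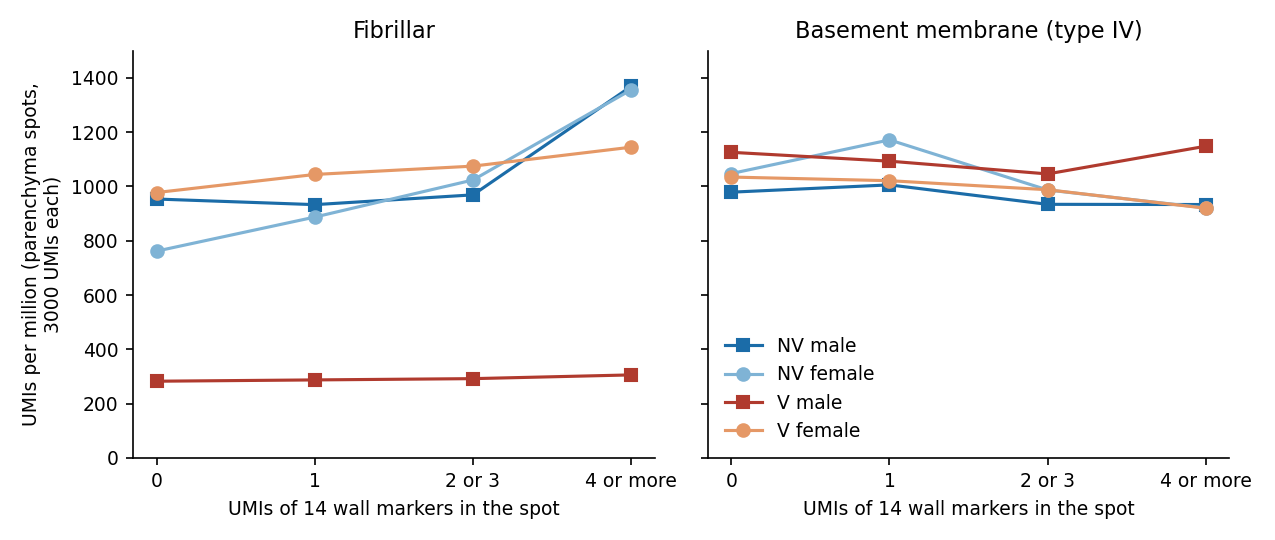
Summed fibrillar (left) and type IV (right) collagens in parenchyma spots of 3000 UMIs, in CPM, against the number of wall marker UMIs in the spot, with 1 line per mouse. Fibrillar collagens reach 1368 and 1356 in the NV mice at 4 or more wall UMIs, and lie between 282 and 306 in all bins of the V male.

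The regions of a section were compared to ask where each class of collagen is transcribed. Hilar spots were set against parenchyma spots of the same mouse in the 3 mice with 50 or more of each, with the mouse as a block. Of 35 collagens tested, 19 (54.3%) were called, 8 higher and 11 lower in hilar spots, on a background of 41.7% of all 14039 genes called (23.2% higher and 18.5% lower). Before adjustment, 60% of collagens and 49.6% of all genes had p under 0.05. Of 9 fibrillar genes 5 rose and 0 fell, and of 6 type IV genes 0 rose and 5 fell. Their median log2 fold changes were 0.47 and -0.66, beside -0.024 over all genes. The split used no collagen, but it used alveolar markers. Lower alveolar type 1 (AT1) and capillary endothelium markers in hilar spots were therefore largely set by the split. How far this bears on the type IV genes was not tested. Markers of the cells that surround or make these matrices differed between the regions too. Adventitial fibroblast markers (5 of 5 called higher) summed to 347 to 386 CPM in parenchyma and 513 to 765 CPM in hilar spots, AT1 markers (5 of 5 lower) to 1443 to 1658 and 316 to 494 CPM, and capillary endothelium markers (6 of 6 lower) to 1636 to 1915 and 566 to 685 CPM. Tissue next to the lung and muscle of its walls were also unevenly spread. Cardiac muscle markers (5 of 6 called higher) summed to 1768 to 2938 CPM in parenchyma and 5946 to 18643 CPM in hilar spots, brown fat markers (7 of 7 higher) to 287 to 854 and 1383 to 3300 CPM, and smooth muscle markers (5 of 5 higher) to 190 to 275 and 324 to 485 CPM. Their part in the collagen differences was not tested.

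The scaling matters for this comparison. TMM assumes that most genes do not differ between regions. With total UMIs in its place, the median of all genes moved from -0.024 to -0.44, and 64.5% of genes were called, 14.4% higher and 50.1% lower. Of the collagens, 5 were then called higher and 15 lower, and 16 of the 19 kept their call. Of the 5 adventitial fibroblast markers, 3 were then called higher. Without the NV female, 12 collagens were called with TMM, among 4244 of 14927 genes. Changes below are TMM-scaled, and the calls lost with total UMIs are named.

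Type IV genes were lower in hilar spots under both scalings. Col4a3 was at 82.2, 120 and 134 CPM in parenchyma and 30.8, 21.6 and 37.7 CPM in hilar spots. The regions did not overlap, and the log2 fold change was -1.48 (SE 0.18, adjusted p = 0.000128). Col4a4 differed by -1.02 (SE 0.12), Col4a2 by -0.67 (SE 0.11), Col4a1 by -0.64 (SE 0.11) and Col4a5 by -0.56 (SE 0.17), with adjusted p from 9.91e-05 to 0.028 in edgeR. Col4a6 was not called (0.21, SE 0.28). Ager and Hopx, read in alveolar type 1 cells, were among the genes most like the summed type IV collagens over spots, as described further on.

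Fibrillar genes were not uniform. Col3a1 was at 318, 344 and 385 CPM in parenchyma and 375, 450 and 461 CPM in hilar spots, higher in each mouse. Its log2 fold change was 0.72 (SE 0.11, adjusted p = 0.000597), and 0.29 (adjusted p = 0.0374) with total UMIs. Col5a3 rose by 1.22 (SE 0.21) and was called under both scalings. Col1a1 (0.47, SE 0.11) and Col5a1 (0.38, SE 0.13) were called with TMM only, and their values with total UMIs were 0.048 and -0.043. Col11a1 (1.28, SE 0.37) rested on the V female, which held nearly all of its UMIs, and had adjusted p = 0.0633 with total UMIs. Col1a2 was not called (0.24, SE 0.12), and its sign turned with total UMIs (-0.18). Col5a2 (0.13, SE 0.12, and -0.29 with total UMIs), Col11a2 and Col27a1 were not called either.

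**Figure D3:**
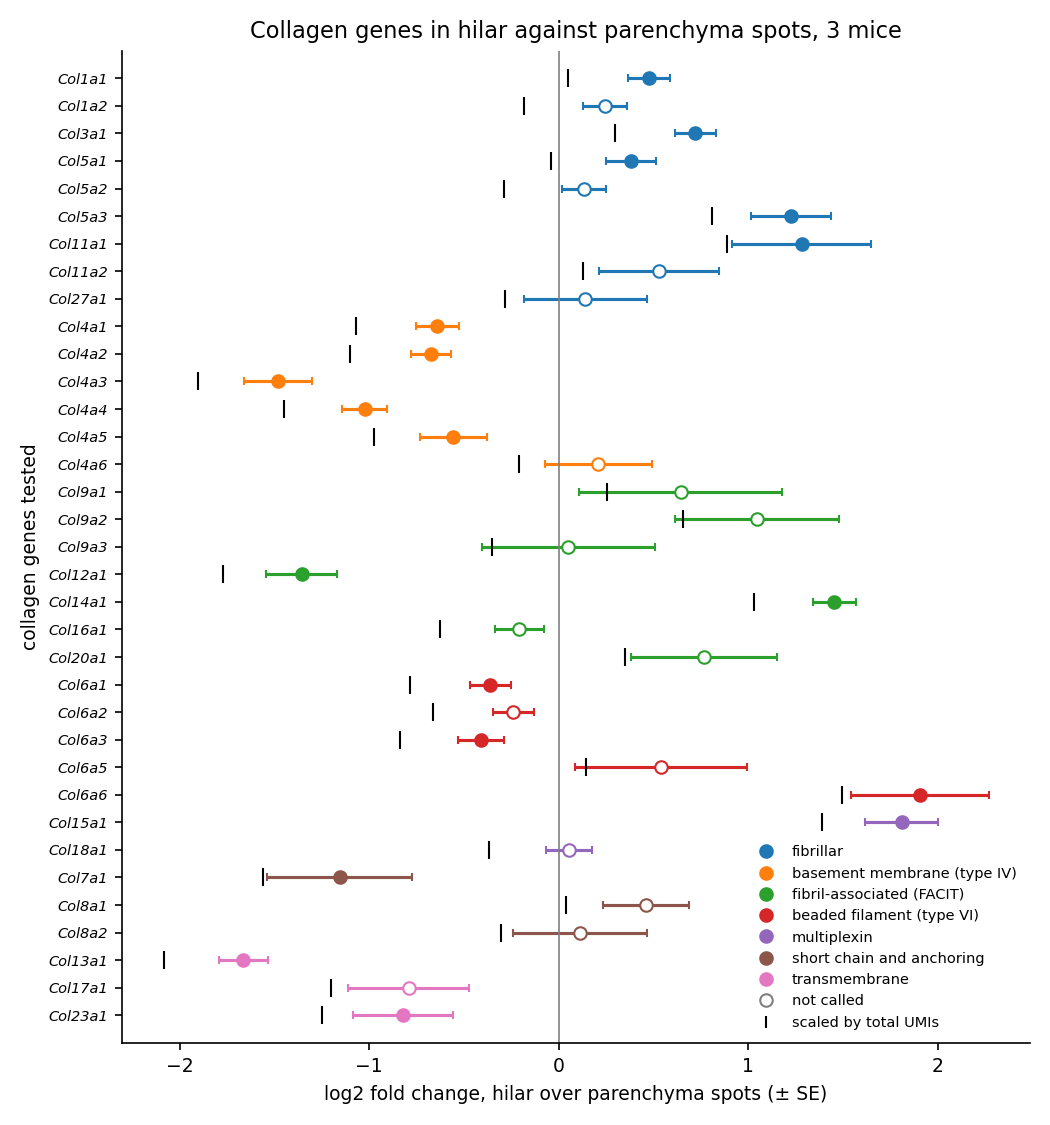
Log2 fold change of the 35 collagens tested, hilar over parenchyma spots, in 3 mice (points with bars, edgeR estimate ± SE; filled, called; open, not called; colour, class; black ticks, the value after scaling by total UMIs). Col4a1 to Col4a5 lie left of 0 under both scalings, and the fibrillar genes lie right of 0 with TMM scaling and on both sides of it with total UMIs.

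The largest differences were those of non-fibrillar genes. Col15a1 was at 19.4, 17.8 and 22 CPM in parenchyma and 48.8, 75.6 and 42.7 CPM in hilar spots, a log2 fold change of 1.81 (SE 0.19, adjusted p = 5.7e-05). Col14a1 was at 32.3, 52.5 and 46.9 CPM and at 71.3, 107 and 90.7 CPM (1.45, SE 0.11, adjusted p = 1.01e-05), and Col6a6 rose by 1.90 (SE 0.36) on 138 UMIs. In the opposite direction, Col13a1 was at 77.2, 88.9 and 65.2 CPM in parenchyma and at 17.5, 18.2 and 17.3 CPM in hilar spots (-1.66, SE 0.13, adjusted p = 1.01e-05). Its upstream sequence and those of Col15a1 and Col3a1 are printed above. No region overlapped the other for Col15a1, Col14a1 or Col13a1.

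Other collagens were lower at the hilum. Col12a1, a FACIT collagen of tissues under tension, was at 30.9, 39.0 and 47.2 CPM in parenchyma and at 6.44, 8.15 and 18.0 CPM in hilar spots (-1.36, SE 0.19). Col7a1, the anchoring fibril collagen (-1.16, SE 0.38), Col23a1 (-0.82, SE 0.26), Col6a3 (-0.41, SE 0.12) and Col6a1 (-0.36, SE 0.11) were also called. Col6a2 (-0.24, SE 0.11), Col18a1 (0.053, SE 0.12) and Col16a1 (-0.21, SE 0.13) as well as Col17a1 (-0.79, SE 0.32) were not called with TMM and were called as lower with total UMIs. Type VI chains of the common heterotrimer thus had negative values, whereas Col6a6 was higher.

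The ratio of the summed classes does not depend on the scaling between regions. The fibrillar to type IV ratio was 1.05, 1.03 and 1.13 in parenchyma spots and 2.25, 2.39 and 2.78 in their hilar spots. It was 2.14, 2.33 and 2.45 times higher in hilar spots, a mean log2 difference of 1.2 ± 0.097 (SD, n = 3) with the same sign in 3 of 3 mice. An exact two-sided sign-flip permutation over 3 mice gave p = 0.25, the smallest it can give. How far each class moved depends on the scaling. On CPM, that is by total UMIs, type IV was at 970, 1033 and 993 CPM in parenchyma and 424, 465 and 450 CPM in hilar spots, while fibrillar collagens were at 1017, 1059 and 1126 CPM and at 954, 1111 and 1251 CPM. With TMM the class medians were those given above, 0.47 and -0.66.

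**Figure D4:**
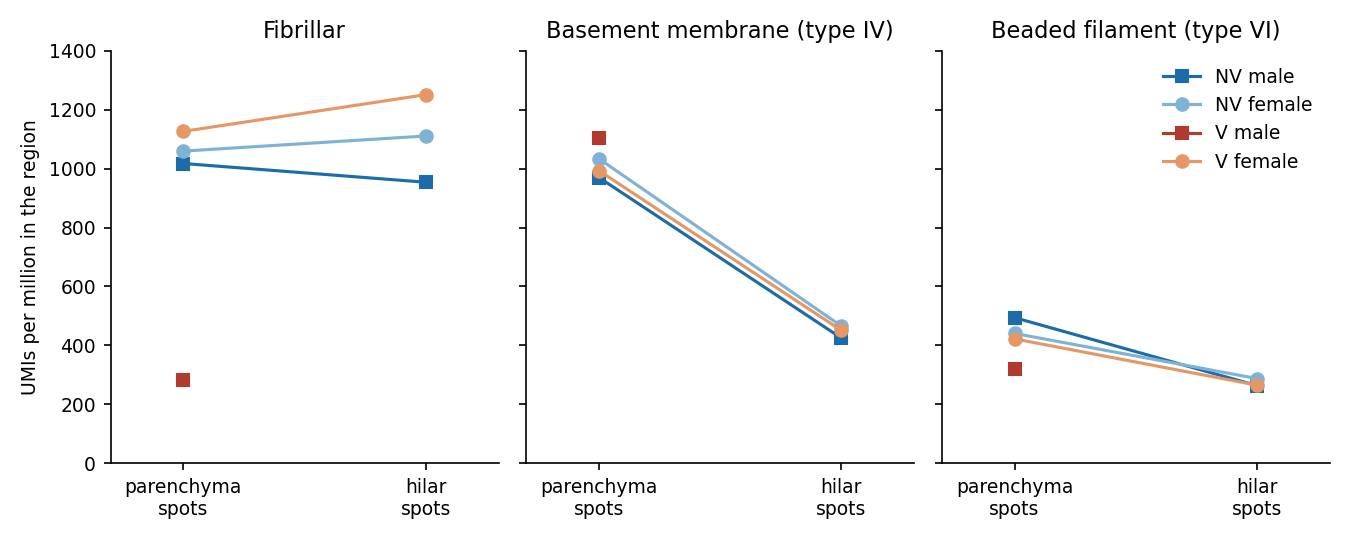
Summed fibrillar, type IV and type VI collagens in CPM in parenchyma and hilar spots, with 1 line per mouse (the V male had 1 hilar spot and has a parenchyma point only). Type IV lies at 970 to 1103 in parenchyma and at 424 to 465 in hilar spots, and the fibrillar level of the V male (284) lies far below the 1017 to 1126 of the other mice.

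Genes of collagen making, linking, binding and breakdown were read from fixed lists, and none of the lists held a gene called in V against NV parenchyma spots, where edgeR called 0 genes in all and 380 had an unadjusted p under 0.05. Between regions, of 23 biosynthesis and processing genes 2 rose and 8 fell in hilar spots with TMM scaling. The 43.5% called was near the 41.7% of all genes. With total UMIs 0 rose and 18 fell, where 14.4% of all genes rose and 50.1% fell. Adamts2, which trims the N-terminal propeptide (0.50), and the lysyl hydroxylase Plod1 (0.42) were higher with TMM only (0.081 and -0.00050 with total UMIs). Sparc, a collagen-binding chaperone (-0.50), Pcolce2, an enhancer of C-propeptide cleavage (-1.20), Ppib (-0.35), Plod2 (-0.38), P4ha2 (-0.32), P3h2 (-0.67), Colgalt1 (-0.41) and Colgalt2 (-0.90) were lower. P4hb, a subunit of prolyl 4-hydroxylase, was not called (-0.13, SE 0.11) and was lower with total UMIs (-0.56). Of 5 crosslinking genes tested 20% were called with TMM, against 41.7% of all genes. The transglutaminase Tgm2 was lower (-0.35), and Loxl1 was not called (0.11, SE 0.11) and was lower with total UMIs (-0.31).

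The proteoglycans that coat fibrils divided into both directions, 4 higher and 3 lower of 8 with TMM and 3 and 3 with total UMIs, on the background of 23.2% higher and 18.5% lower of all genes with TMM. Dcn was at 324, 396 and 328 CPM in parenchyma and 1062, 1049 and 1019 CPM in hilar spots (2.01, SE 0.13, adjusted p = 5.76e-06), and Lum (2.11), Aspn (0.90) and Omd (1.10) were also higher, of which Omd was not called with total UMIs (0.68). Bgn (-0.50), Ogn (-0.73) and Prelp (-1.04) were lower. Of 14 basement membrane partners 3 were called higher and 5 lower with TMM, and 1 and 8 with total UMIs. With total UMIs 14.4% of all genes were higher and 50.1% lower. The laminin chains Lama3 (-1.39), Lamb3 (-1.32) and Lama5 (-0.67) and the proteoglycan Agrn (-0.77) were lower, and Nid2 (1.3), Lama2 (0.60) and Nid1 (0.42) were higher, the latter 2 with TMM only (0.18 and -0.0069 with total UMIs). Lamb2 (0.30, SE 0.13) and Lamc1 (0.12, SE 0.12) were not called, and Lamc1 was lower with total UMIs (-0.30).

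Of 9 collagen receptor genes 1 was higher and 4 lower, and 1 and 7 with total UMIs. Of all genes, 23.2% were higher and 18.5% lower with TMM, and 14.4% and 50.1% with total UMIs. The share called with TMM was 55.6% of receptor, 28.6% of breakdown and 33.3% of fibrosis-associated genes, against 41.7% of all genes. Itga1 (-1.05), Itga2 (-1.13), their partner Itgb1 (-0.51) and the endocytic receptor Mrc2 (-0.92) were lower and Itga11, the type I collagen integrin of fibroblasts, was higher (1.31). Of 7 genes of breakdown, Timp3, a matrix-bound protease inhibitor, was lower (-0.44), the gelatinase Mmp9 higher (1.12), and Timp2 not called (-0.14, SE 0.12), though lower with total UMIs (-0.57). Of 9 fibrosis-associated genes 3 were lower with TMM, among them Postn (-1.12) and Cthrc1 (-0.96), and 8 with total UMIs. Fn1 was not called (-0.21, SE 0.11) with TMM and was lower with total UMIs (-0.64).

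Over spots, the correlations between the 2 main classes were low. The Pearson correlation of log-scaled fibrillar and type IV levels was 0.21, 0.21, 0.053 and 0.0099 over 842, 473, 1565 and 2053 spots, with a mean of 0.12. After thinning each spot to 3000 UMIs the mean was -0.00090. These are descriptions over spots that share a library and depth, without a test. Thinned spots held means of 0.860 to 3.52 fibrillar UMIs, and counts this small hold any correlation down. A lack of relation is therefore not shown. Within classes, Col1a1 and Col3a1 had mean correlations of 0.23 before and 0.11 after thinning, and Col4a1 and Col4a2 of 0.21 and 0.052. At 3000 UMIs, the spread between spots beyond counting error was 0.38 to 0.63 of the mean for fibrillar and 0.16 to 0.42 for type IV collagens, and larger for fibrillar in each section.

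The genes whose pattern over spots was most like that of each class were ranked among 5627 genes by their mean correlation over the 4 sections. For fibrillar collagens these were C3 (0.30), Gsn (0.29), Mgp (0.28), Serping1 (0.28), Dcn (0.28), Apoe (0.24), Igfbp5 (0.23) and Crip1 (0.23), and Col1a1 itself had 0.28 with the rest of its class. For type IV collagens they were Ager (0.38), Hopx (0.37), Epas1 (0.36), Emp2 (0.35), Inmt (0.33), Msn (0.33), Actg1 (0.33) and Sftpb (0.33). The correlations were lowest in the V male, at 0.051 to 0.12 for the fibrillar and -0.028 to 0.17 for the type IV set. After thinning, 6 of the 8 fibrillar and 4 of the 8 type IV genes were still among the first 8, and in parenchyma spots 7 and 5. Ager, the receptor for advanced glycation end products of alveolar type 1 cells, ranked first for type IV in all 3 settings. Hopx and Sftpb belong to the markers that split the regions. The likeness says nothing of shared control.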

How the data were processed

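The deposited files were raw UMI counts per spot and gene, which the authors made with Space Ranger on the mm10 genome (per the labels), without normalization. Counts were summed per mouse over whole sections and over parenchyma or hilar spots, without a filter on spots. Sums were compared with edgeR 4.0.16 (R 4.3.3; TMM, filterByExpr, quasi-likelihood F test, Benjamini-Hochberg adjustment), with the mouse as a block between regions, and with DESeq2 1.42.0 as an alternative. The SE is the log2 fold change divided by the square root of F. The steps were tested on simulated counts with 200 changed genes. Groups had 2 mice, so an exact permutation of 1 value cannot give p under 0.333. Named were all collagens with 20 or more UMIs, the called genes and the 2 with the most UMIs of each list, and the 8 genes most like each class. The members and lists were chosen with earlier results of these data known. One further gene of this symbol form and some genes of the lists were left out and are not reported here. Alternatives covered scaling, filters, the region threshold and leaving out mice.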

Additional observations from a re-analysis of the deposited data

Results flagged for a closer look

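The V male and V female moved in opposite directions from the NV mouse of the same sex in several collagen measures. Each value below is the log2 difference between V and NV in males minus that in females, with 1 mouse behind every level, and the difference between the sexes was not tested. Over whole sections it was -1.95 for the fibrillar collagens (-1.82 in males and 0.13 in females), -2.00 for Col1a1 (-1.90 and 0.10) and -2.39 for the fibrillar to type IV ratio (-2.21 and 0.18). In the opposite sense it was 0.36 for Col4a1 (0.19 and -0.17) and 0.66 for the transmembrane collagens (0.56 and -0.10).

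In parenchyma spots it was -3.12 for Col3a1 (-2.96 and 0.16), -2.17 for the fibrillar to type IV ratio (-2.03 and 0.15), -0.97 for the multiplexins (-0.83 and 0.13), -0.51 for the short chain and anchoring collagens (-0.12 and 0.39) and 0.56 for the transmembrane collagens (0.27 and -0.29). Sex, the individual mouse and the tissue in its section cannot be told apart in this design.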

How the results depend on the processing

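The counts of called collagens between V and NV mice depended on single mice. They ranged from 0 to 13 in parenchyma spots and from 0 to 7 over whole sections when each mouse was left out, the highest without the V female. The difference of the log2 fibrillar to type IV ratio ranged from -2.33 to 0.30. In parenchyma spots Col1a1 ranged from -1.97 to 0.12, Col1a2 from -1.74 to 0.055 and Col3a1 from -3.02 to 0.25, positive without the V male. Over whole sections Col1a1 ranged from -2.11 to 0.24, Col3a1 from -3.29 to 0.29 and Col4a1 from -0.13 to 0.086. Col4a1 also turned with total UMIs (0.028) and without a filter on low counts (0.0035) over whole sections, and in parenchyma spots without wall markers (0.049). Between regions, 12 to 18 collagens were called with 1 mouse left out and 12 without the replicate block on the mouse, against 19. The calls over all genes changed too. They were 4244 of 14927 without the NV female and 3921 of 13526 without the block, against 5855 of 14039. With total UMIs, Col1a2 (-0.18), Col5a1 (-0.043), Col5a2 (-0.29), Col27a1 (-0.28), Col4a6 (-0.21), Col9a3 (-0.35), Col8a2 (-0.31) and Col18a1 (-0.37) turned negative. After thinning, the mean correlation of the classes over spots was -0.00090. The cause of these changes was not tested. Same-numbered V and NV mice share only their sex, and their deviations from the group means correlated at 0.054. With 2 mice per group both pairs must give this same value. With a replicate block for the sex, edgeR called 0 collagens. Such a block cannot change the ratio difference of -1.01, because each group had 1 male and 1 female. Total UMI scaling and spots without wall markers were chosen after seeing the data. Depth limits the collagens with few UMIs, such as Col28a1 (37).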
